A study of Gallus gallus with 4 samples.

Results

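The chicken carries its Hox genes in 4 clusters, HoxA to HoxD, and 29 of them are described here together with PBX3, PBX4, MEIS1 and MEIS2. Members were all probe sets of the deposited table whose only platform symbol was that of a HoxA, HoxB, HoxC or HoxD gene, a PBX gene or a MEIS gene. This gave 66 of 37695 chicken probe sets, for 33 of 13009 genes. Of these genes, 19 had several probe sets and 14 had 1. Genes of these families without such a probe set were not analysed here.

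Hox proteins are homeodomain transcription factors that give cells along the trunk their position. Genes of a cluster are numbered by paralog group, and in vertebrate embryos those of low number are in general activated earlier and reach further forward than those of high number. PBX and MEIS proteins belong to the TALE class of homeodomain proteins and bind DNA together with Hox proteins. Progenitors of the trunk mesoderm enter the streak while Hox genes of rising number are switched on, and the posterior genes of groups 10 to 13 come last.

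The tissue was the primitive streak region with the precursors of the presomitic mesoderm (PSM), from which the somites are cut off. All embryos were incubated for 24 h at 38 °C to Hamburger and Hamilton stage 5, electroporated and cultured for 14 h until they had 9 somites. In the HoxA13 group the vector held HoxA13 under the CAGGS promoter, which is active in most cell types, with a nuclear H2B-Venus reporter. In the control group the vector coded for H2B-Venus only. Each group had 2 arrays, each from a pool of 7 embryos, so every value is a mean over electroporated and unelectroporated cells, and fewer cells of a type cannot be told apart from less RNA per cell. No strain, sex or share of electroporated cells is given in the sources used here.

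Background was set at the 99th percentile of all 687 viral probe sets. In intensity this came to 14.3 on HoxA13 replicate 1, 14.5 on HoxA13 replicate 2, 12.8 on control replicate 1 and 16.5 on control replicate 2, and 37.8% to 42.7% of the chicken probe sets exceeded it. A probe set is called above background here when its mean log2 intensity over the 4 arrays exceeded that of these limits. Of 7 markers of the streak and PSM progenitors, 6 were above background, and TBX6, a T-box gene of the PSM, was not. Their summed intensity was 13993 to 14420 on the HoxA13 arrays and 11113 to 12725 on the controls. Of the 6, 4 were higher without overlap, FGF8, WNT3A, CDX2 and CDX4, with limma adjusted p from 0.756 to 0.998. Of all chicken probe sets above background, 18.6% were higher without overlap and 14.3% lower. MSGN1 was lower without overlap, at 1399 and 1244 against 2040 and 1480. TBXT overlapped, at 6483 and 5820 against 5873 and 5508, and had the largest share of the sum on every array. The sum of the 5 lateral plate markers was 33.5 to 52.1 against 121 to 144, and PRRX1 alone, the only one above background, was 16.6 and 29.9 against 109 and 113. That of 4 endoderm markers was 30.0 to 75.5 against 361 to 447, with 2 above background. HHEX alone made up most of it, at 44.2 and 9.39 against 336 and 419, while FOXA2 was 19.4 and 15.7 against 20.6 and 19.9. That of 3 measured surface ectoderm markers was 1065 to 1604 against 1735 to 2631, with 2 above background. Most of it was EPCAM alone, at 1575.5 and 1029 against 2603 and 1686.5. TFAP2A overlapped, at 21.6 and 16.2 against 20.8 and 46.6. GRHL3, not above background by its mean, went the other way without overlap, at 7.34 and 19.5 against 7.00 and 1.99. The summed neural markers overlapped between the groups, at 155 to 261 and 192 to 199, with 4 of 5 above background. PAX6 alone among these was higher without overlap, at 30.1 and 19.9 against 8.69 and 10.3 (log2 difference 1.37, limma adjusted p = 0.814). Both controls were below background for PAX6, so it passed the limit through the HoxA13 arrays only. With the controls set at background it was at least 1.68-fold higher. SOX2, SOX3 and OLIG2 overlapped. The summed somite markers also overlapped, at 74.3 to 99.2 and 76.5 to 103, with 2 of 4 above background. This sum hides opposite differences without overlap. On the log2 scale MEOX1 was lower (-1.64, limma adjusted p = 0.777) and PAX9 higher (1.61, limma adjusted p = 0.768). None of 4 measured blood and endothelial markers was above background. The part of these differences in the Hox values below was not tested.

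HOXA13, the gene on the vector, had 1 probe set. Its intensity was 16.3 and 8.09 in the HoxA13 group, replicate 1 before replicate 2 as in all pairs of values below, and 11.6 and 24.7 in the control group. The groups overlapped, 1 array of each was above background, and the highest value was that of a control. The log2 difference was -0.55 ± 0.67 (SE, n = 2 per group, limma adjusted p = 0.998). The vector's HoxA13 is thus not seen in these values on the arrays labelled HoxA13. Whether the probe set lies in the stretch that the vector holds was not checked here, and the groups below rest on the labels.

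Most Hox genes of low number were above background in this tissue at their brightest probe set. Those of middle number were so in part, and those of high number, with 1 exception, were not. In paralog groups 1 to 4, which pattern the hindbrain and neck, 7 of 8 measured genes were above background. In groups 5 to 9, known for the neck, chest and trunk, 7 of 11 were. In groups 10 to 13, which pattern the lumbar to caudal region, 1 of 10 was, and 8 of the 10 were below background on every array. Counted by probe set, 9 of 16 in groups 1 to 4 and 12 of 21 in groups 5 to 9 were above background. The step from low to middle number is thus not seen by probe set, while groups 10 to 13 had 2 of 22. By cluster, 8 of 10 HoxA genes, 5 of 9 HoxB genes, 1 of 4 HoxC genes and 1 of 6 HoxD genes were above background. Because 4 of the 6 measured HoxD genes and 2 of the 4 measured HoxC genes belong to groups 10 to 13, the cluster and the paralog number are mixed in these counts. Between 19 and 20 of the 33 genes were above background on each array, so the number detected did not separate the groups. Of all 66 member probe sets, 26 (39.4%) were above background, near the 14250 of 37695 among chicken probe sets.

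**Figure D1:**
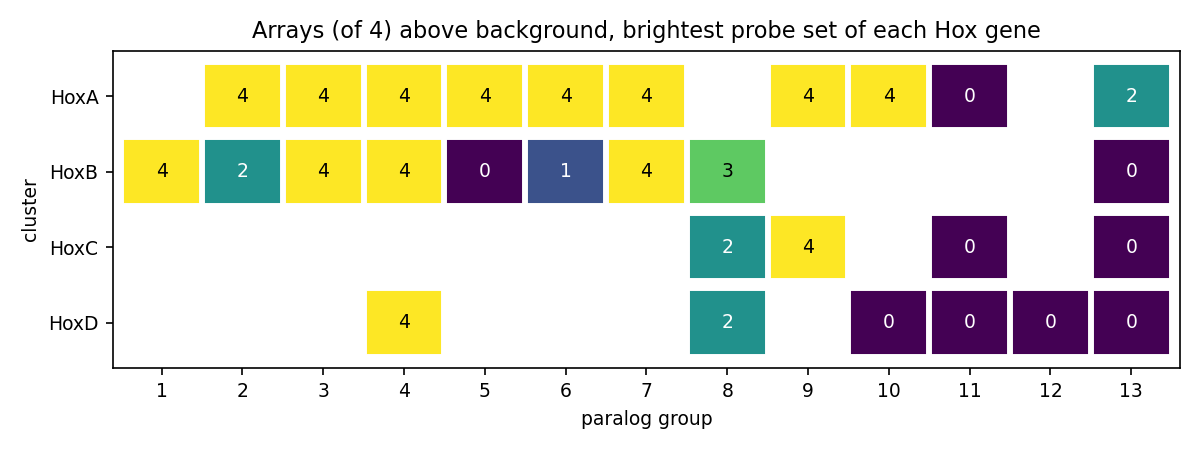
Number of arrays, of 4, on which the brightest probe set of each Hox gene exceeded the 99th percentile of viral probe sets, with paralog group on the horizontal and cluster on the vertical axis (blank: not analysed here, or no such gene). HOXA2 to HOXA10 reach 4, and 8 genes of groups 10 to 13 stay at 0.

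A low intensity of a probe set does not show that a gene is off, since probe sets differ in how well they bind. In 8 of the 33 genes, probe sets of the same gene lay on both sides of background. HOXB1, a gene of the streak and later the hindbrain, had 1813 and 2081 on the HoxA13 arrays at its brightest probe set, while its 4 others reached 52.5 at most on any array. For the same reason intensities of different genes are not ranked here. Per the RefSeq gene models, 8 pairs of member genes overlap, among them HOXA3 with HOXA4, HOXA5 and HOXA6 and HOXB3 with HOXB4, so signal of such neighbours may be shared.

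The comparison of the design asks what HoxA13 in the progenitors does to these genes. No member passed the limma test in either direction: 0 of 66 probe sets had an adjusted p under 0.05, where 0.0% of the 37695 chicken probe sets were called higher and 0.0% lower. The smallest adjusted p of a member was 0.633. At an unadjusted p under 0.05 there were 5 of 66 members, 7.58%, near the 5.91% of all chicken probe sets. A fit of log2(intensity + 16) with a trended prior on probe sets above background on at least 2 arrays, here the offset fit, also called 0 of the 32 members in it, with a smallest adjusted p of 0.673, where 0.019% of 15818 probe sets were called higher and 0.0632% lower. With 2 arrays per group the differences below are therefore descriptions of these 4 arrays. Of the cell type markers given above, the offset fit called HHEX lower (adjusted p = 0.0352), while its adjusted p in limma was 0.631.

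Without passing a test, more member probe sets above background lay higher than lower on the HoxA13 arrays, while over all 66 the numbers were near the background. Of the 26 member probe sets above background, 9 (34.6%) had both HoxA13 arrays above both controls, and 2 (7.69%) had both below. The background is 18.6% of the 14250 chicken probe sets above background for higher and 14.3% for lower. Of all 66 members, 13 (19.7%) were higher and 11 (16.7%) lower without overlap, against 6391 (17.0%) and 6028 of all 37695 chicken probe sets. The 9 stand for 6 genes, HOXA2, HOXA4, HOXA7 with 4 probe sets, HOXB1, HOXC9 and HOXD4, and the 2 are of HOXA6 and HOXA10. Among the 9, the dimmest HOXA7 probe set was 20.2 and 23.0 against 12.5 and 13.9, with both controls below background. That probe set thus entered the 26 through the group where it is high, and it also stayed higher without overlap after quantile normalization. The median log2 difference was 0.22 over the 26 and 0.04 over the 14250. It was 0.32 for the 9 probe sets of groups 1 to 4, 0.27 for the 12 of groups 5 to 9 and -0.51 for the 2 of groups 10 to 13, both of HOXA10. The excess depends on the scaling, since after quantile normalization 5 of 26 (19.2%) were higher without overlap, against 17.0% of all probe sets above background. With the arrays scaled to equal medians it was 10 of 26, against 20.4%. The summed progenitor markers given above were also higher on both HoxA13 arrays, although MSGN1 was lower and TBXT, the largest part of the sum, overlapped. The part of these markers in the excess was not tested.

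**Figure D2:**
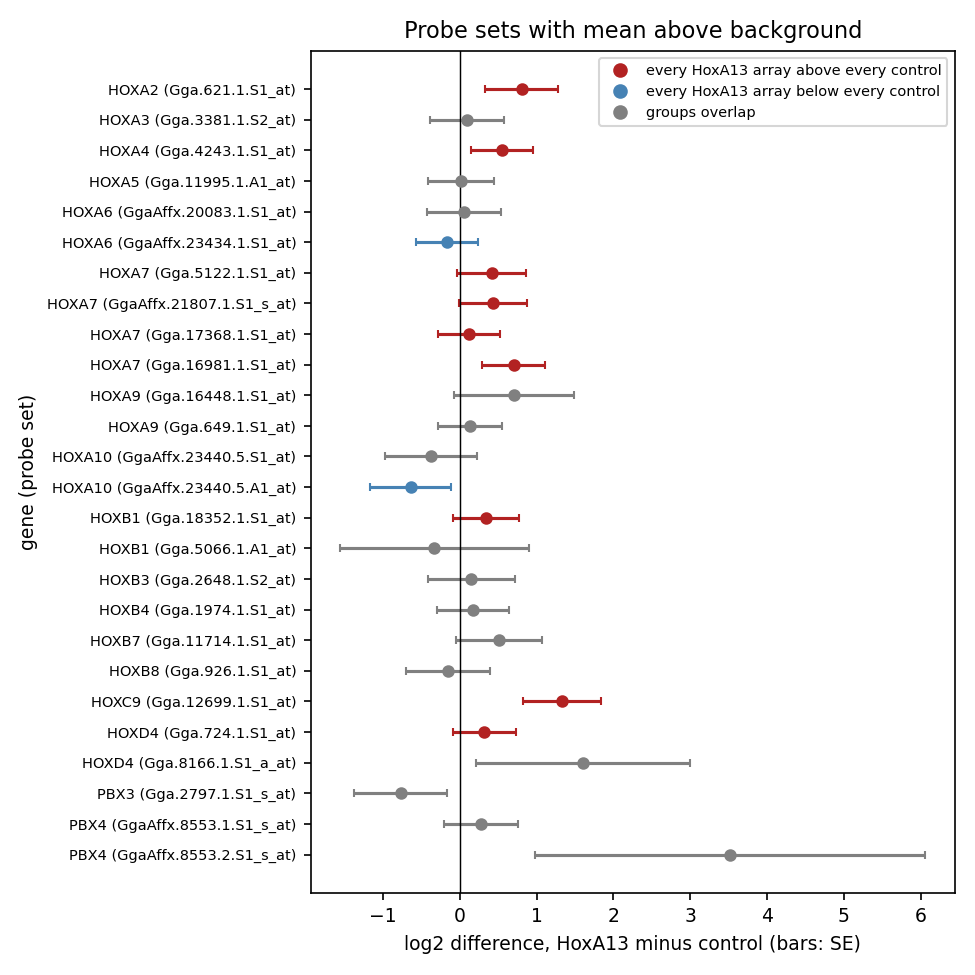
Log2 difference, HoxA13 minus control, with its SE from limma (n = 2 arrays per group), for each of the 26 member probe sets above background. Red and blue mark groups that do not overlap (9 higher, 2 lower), grey groups that overlap.

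Among the genes of groups 1 to 4, HOXA2, which patterns the hindbrain and the second pharyngeal arch in vertebrates, was 41.5 and 66.1 on the HoxA13 arrays and 27.6 and 32.5 on the controls. Both HoxA13 arrays were the higher ones, a log2 difference of 0.81 ± 0.48 (SE, limma adjusted p = 0.989). HOXA4 was 721 and 772 against 509 and 514. Here the arrays of each group lay close together, and the gap between groups, 1.46-fold, was wider than the range within either (0.54 ± 0.40, limma adjusted p = 0.989). Its paralog HOXD4 also had both HoxA13 arrays above both controls, with 616 and 541 against 464 and 461, or 1.25-fold. Another HOXD4 probe set was 29.3 and 22.9 against 31.0 and 2.35, so there the groups overlapped and 1 control array was below background.

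HOXB1, an early gene of the streak, was 1813 and 2081 on the HoxA13 arrays and 1334 and 1750 on the controls at its brightest probe set. The groups did not overlap and were 1.27-fold apart (limma adjusted p = 0.998), but after quantile normalization HoxA13 replicate 1, at 1787, lay under control replicate 2, at 1802. Another HOXB1 probe set above background by its mean was 9.03 and 26.7 against 7.23 and 52.5. There the groups overlapped and the log2 difference was -0.33. HOXB2 was 3.36 and 4.94 on the HoxA13 arrays and 15.9 and 20.0 on the controls. It was above background on the controls only and not by its mean, and at least 1.24-fold lower in HoxA13 with the dim arrays set at background. Its adjusted p of 0.633 in limma was the smallest of any member. HOXA3 was 1275 and 1546 against 1030.2 and 1669.9, HOXB3 was 245 and 198 against 288 and 136, and HOXB4 was 65.4 and 47.9 against 41.9 and 58.9. In these 3 genes the controls bracketed the HoxA13 arrays or the groups interleaved, and the log2 differences were between 0.10 and 0.17, each smaller than its SE.

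**Figure D3:**
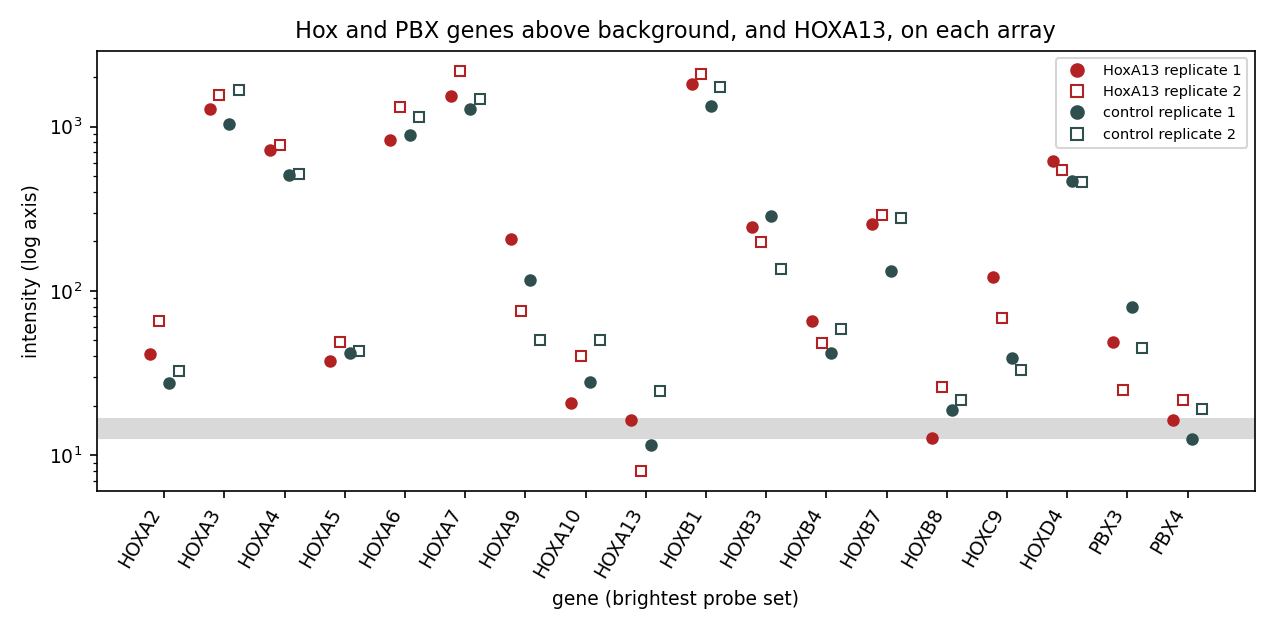
Intensity (log axis) on each of the 4 arrays for the brightest probe set of the 17 member genes above background and of HOXA13, with replicate 1 filled and replicate 2 open. The grey band spans the background of the 4 arrays, 12.8 to 16.5. HOXA2, HOXA4, HOXA7, HOXB1, HOXC9 and HOXD4 have both HoxA13 arrays above both controls, and HOXA13 itself straddles the band. These are 6 of the 17 genes, counted at the brightest probe set. Of all chicken probe sets above background, 18.6% lay higher without overlap, a share counted by probe set and not by gene.

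Of groups 5 to 9, HOXC9 differed most. This gene is known in mouse and chick for specifying thoracic identity. It was 121 and 68.1 on the HoxA13 arrays and 39.2 and 33.0 on the controls, with a mean of 94.5 ± 37.3 against 36.1 ± 4.37 (SD, n = 2 each). Both HoxA13 arrays were above both controls, although they differed from each other more than the controls did. The difference was 2.52-fold, or 1.33 ± 0.51 on the log2 scale (SE), with an adjusted p of 0.877 in limma and 0.673 in the offset fit. HOXC8, its neighbour in the cluster, was 16.3 and 15.3 against 12.4 and 13.5. It was above background on each HoxA13 array and on neither control, at least 1.08-fold higher. By its mean HOXC8 was not above background, and its values lay close to the limits of 12.8 to 16.5.

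HOXA7, another trunk gene, was the member with the most probe sets above background, and all 4 of them had both HoxA13 arrays above both controls in the deposited values, while after quantile normalization 1 of the 4 did, the dimmest. The brightest was 1541 and 2184 against 1283 and 1476, which is 1.33-fold. The next was 287 and 207 against 167 and 194, or 1.35-fold. The smallest difference was 183 and 176 against 166 and 165, or 1.08-fold. The dimmest was 20.2 and 23.0 against 12.5 and 13.9, with the controls below background and HoxA13 at least 1.48-fold higher. The 4 limma adjusted p values lay between 0.989 and 1. These probe sets measure the same RNA on the same arrays, so they are 1 observation of the gene and not 4.

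**Figure D4:**
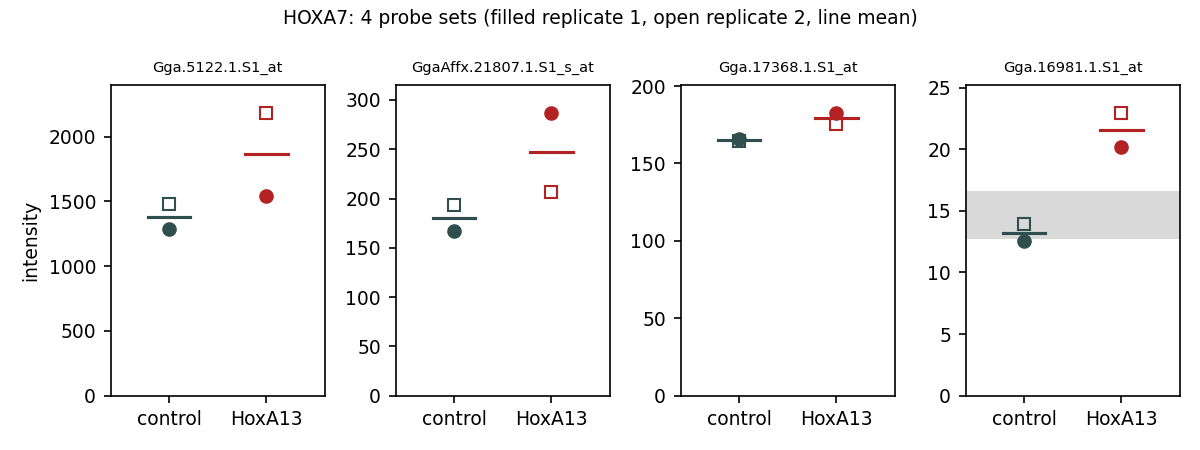
Intensity of the 4 HOXA7 probe sets, ordered from brightest to dimmest, on control and HoxA13 arrays (filled replicate 1, open replicate 2, line group mean, grey band background, each axis from 0). The HoxA13 arrays are above the controls in every panel, by 1.08-fold at the least, in the deposited values; after quantile normalization only in the dimmest do the groups stay apart.

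The other genes of groups 5 to 9 overlapped between the groups. HOXA9 was 206 and 75.4 on the HoxA13 arrays and 116 and 50.5 on the controls, so within each group replicate 1 was more than 2-fold above replicate 2, a gap wider than that between the groups. HOXB7 was 256 and 289 against 131 and 278, where control replicate 1 was the low array. HOXA5 was 37.6 and 49.0 against 42.0 and 42.9. The other HOXA5 probe set was below background on every array, at 5.28 and 11.8 against 0.88 and 8.03. The identifiers of the HOXA5 probe sets carry the tags A1 and S1, and the strand that each reads was not settled here. HOXA6, which neighbours HOXA7, was 832 and 1315 against 884 and 1147, and in both groups replicate 2 was the brighter. A further HOXA6 probe set was 469 and 449 against 503 and 526, lower on both HoxA13 arrays by 1.12-fold. HOXB8 was 12.8 and 26.0 against 19.0 and 21.7, with the HoxA13 arrays on either side of the controls. HOXB5, HOXB6 and HOXD8, like HOXC8 above, were not above background by their mean. HOXD8 reached 35.8 on HoxA13 replicate 1 and 2.82 on replicate 2, the widest gap among these.

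Of the posterior genes only HOXA10 was above background by its mean, at 2 of its 4 probe sets. HOXA10 takes part in lumbar patterning in the mouse. Its brightest probe set was 21.0 and 40.2 on the HoxA13 arrays and 28.1 and 50.5 on the controls, overlapping, with replicate 2 the brighter in both groups. The next was 21.3 and 24.6 against 25.8 and 49.1, where both HoxA13 arrays were below both controls (-0.64 ± 0.52 on the log2 scale, limma adjusted p = 0.989). The identifiers of these probe sets differ only in the tags S1 and A1, and the strand that each reads was not settled here. They also share a design number with 4 HOXA11 probe sets, so the gene they report is uncertain. Among the overlapping RefSeq pairs is HOXA10 with HOXA9, a gene above background, so signal may be shared there too. The 2 other HOXA10 probe sets were below background on every array.

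The other 8 posterior genes besides HOXA13, namely HOXA11, HOXB13, HOXC11, HOXC13, HOXD10, HOXD11, HOXD12 and HOXD13, had 17 probe sets with at most 16.1 on any array, and none was above background on any. HOXD11 was 2.96 and 10.2 against 1.76 and 1.78, and a HOXD10 probe set 1.96 and 1.26 against 0.44 and 1.0. The other HOXD10 probe set differed the opposite way without overlap, at 0.33 and 0.73 against 3.53 and 0.80. With HOXC9, HOXD11 and the first HOXD10 probe set had the smallest unadjusted p among the higher members, but in HOXD10 and HOXD11 both groups were below background, so no fold is given. A dim probe set of HOXB1 (1.82 and 2.83 against 10.4 and 7.77) and one of HOXA10 (0.30 and 0.45 against 1.31 and 1.08) were, with HOXB2, those with the smallest unadjusted p among the lower members, and they too were below background on all arrays.

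Of the 4 cofactor genes, PBX3 and PBX4 were above background and both were dim. PBX3, a PBX family partner of Hox proteins, was 49.0 and 25.1 on the HoxA13 arrays and 79.7 and 44.8 on the controls. The groups overlapped, and in both of them replicate 1 was the brighter (-0.77 ± 0.61, limma adjusted p = 0.989). PBX4 was 16.4 and 21.7 against 12.7 and 19.1 at the probe set with the highest mean log2 intensity. Another of its probe sets was 40.7 and 61.9 against 50.1 and 0.38, so the fitted log2 difference of 3.52 ± 2.54 there comes from control replicate 2 alone. The third was below background on every array. MEIS2 was 8.75 and 14.6 against 18.3 and 14.7 at the brighter of its 2 probe sets, with 1 array of each group above background. MEIS1 was not above 5.79 on any array. Neither MEIS gene was above background by its mean.

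Other TALE genes were measured for 8 of 11 listed, of which 4 were above background, and 0 passed limma or the offset fit. PKNOX1, a relative of MEIS that also binds PBX, was 25.1 and 26.3 against 19.3 and 24.2, and PKNOX2 20.1 and 31.6 against 17.7 and 32.7. TGIF2, a TALE repressor of TGF-beta signalling, was 65.0 and 95.4 against 43.6 and 30.1. Both HoxA13 arrays were the higher for PKNOX1 and TGIF2 and the groups overlapped for PKNOX2. IRX4 also overlapped, at 37.8 and 27.3 against 35.2 and 7.95, with control replicate 2 below background. The list had 2 higher and 0 lower without overlap, where 18.6% and 14.3% of all probe sets above background were, and its median log2 difference above background was 0.60, against 0.04 for all. That median is over 4 genes and lies between PKNOX1 at 0.25 and IRX4 at 0.94.

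Among 20 listed regulators of Hox transcription, 16 were measured and 15 were above background. Limma called 0 of them and the offset fit 1, CYP26A1, an enzyme that degrades retinoic acid, as higher (808 and 443 against 112 and 93.7, adjusted p = 0.0481 in the offset fit). Of the 15, 6 were higher and 2 lower without overlap, where 18.6% and 14.3% of all probe sets above background were, and their median log2 difference was 0.17, against 0.04 for all. Among the 6, FGF8, WNT3A, CDX2 and CDX4 are also the 4 progenitor markers given above as higher. The caudal genes, which activate Hox genes in the streak, differed in direction. CDX2 was 473 and 557 against 392 and 381 and CDX4 3200.4 and 2783 against 2458 and 1928, both higher without overlap, while CDX1 was 17.7 and 15.3 against 31.4 and 27.8, lower without overlap. None of the 3 passed a test (limma adjusted p between 0.967 and 0.995). FGF8 was 1411 and 1637 against 637 and 545 (limma adjusted p = 0.756). ALDH1A2, which makes retinoic acid, an inducer of anterior Hox genes, was below background on both HoxA13 arrays, at least 2.30-fold lower (limma adjusted p = 0.775). ALDH1A2 thus entered the 15, and the 2 lower among them, through the controls only, the group where it is high. RARB, a retinoic acid receptor, was higher without overlap, at 93.7 and 58.9 against 55.7 and 35.0 (limma adjusted p = 0.989). The listed chromatin regulators KMT2A, EED, EZH2, SUZ12, BMI1 and CTCF overlapped between the groups, with log2 differences from -0.12 to 0.26.

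Of 20 listed genes beside vertebrate Hox clusters, 13 were measured, 10 were above background and 0 passed either test. EVX1, a homeobox gene on the HOXA13 side of the HoxA cluster, was 51.3 and 107 on the HoxA13 arrays and 20.8 and 18.5 on the controls. Both HoxA13 arrays were above both controls (1.92 on the log2 scale, limma adjusted p = 0.739, and 0.432 in the offset fit). SKAP2, which flanks the HoxA cluster at its other end and was named after its values were seen, was 1363 and 1349 against 830.1 and 693, also without overlap (limma adjusted p = 0.967). EVX2, beside HOXD13, stayed below background on every array, at 13.4 and 10.7 against 8.38 and 10.4. Of the 10, 3 were higher and 0 lower without overlap, beside the same 18.6% and 14.3%, and their median log2 difference was 0.10.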

How the data were processed

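Total RNA of 4 samples was hybridised to a chicken Affymetrix array after a double amplification, per the labels' protocols. The authors deposited linear intensities, 1 per probe set. The submitters' processing notes name R 2.12.1 and no other tool. How probes were summarised and arrays scaled is not given in the sources. Intensities were taken as deposited. Medians over chicken probe sets were 9.48 to 10.0. Tests covered the 37695 chicken probe sets and left out 687 viral, 57 reporter and 96 control ones. The platform annotation gave a lone symbol to 27168 of them, several to 177 and no symbol to 10350. All 33 member genes matched the RefSeq table of the GRCg7b assembly by Entrez number, and 0 symbols changed.

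HoxA13 was compared with control with R 4.3.3 and limma 3.58.1, using lmFit and a two-sided eBayes test. Log2 intensities of all chicken probe sets entered the fit, p was adjusted by Benjamini-Hochberg with a threshold of 0.05, and the script was tested on simulated data. The offset fit and other alternatives are given in the closing section. "At least" folds raise arrays below background to it. An exact permutation test of 2 against 2 arrays cannot give a p below 0.333. The labels call the arrays biological replicates. The probe set with the highest mean log2 intensity stood for a gene. Counts in the other lists are therefore by gene, while the shares beside them are of all probe sets above background. Values are given for HOXA13, for members above background, and for the 3 members per direction with the smallest p; from the other lists, for the 3 per direction with the smallest p and fixed genes, of which GDF11 was not measured here, and further genes were named after their values were seen. Members, lists and tests were chosen with earlier results of these data known. The number of arrays limits the precision.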

Additional observations from a re-analysis of the deposited data

Results flagged for a closer look

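Outside the comparison of chicken genes, reporter probe sets carried signal above the controls. The brightest of 57 was 7038 and 7458 on the HoxA13 arrays, a mean of 7248, against 1293 and 1454 on the controls. Another had a mean of 92.5, from 109 and 76.3, against 3.67 and 2.59. Both vectors carry a reporter. Which probe sets match it is not stated.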

How the results depend on the processing

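No Hox, PBX or MEIS probe set was called in either direction in the planned fit or in any of the 11 alternatives. Over all chicken probe sets the planned 0 higher and 0 lower became 1 lower with probe sets above background only, 3 higher and 10 lower in the offset fit, and 53 higher and 107 lower in the offset fit blocked on replicate number. The replicate block without the offset gave 0 and 0, and leaving out each array gave 0 and 0. The labels do not say that equal numbers pair the arrays; deviations from the group means correlated at 0.26 across 14250 probe sets. In the offset fit HOXC9 had a log2 difference of 1.04, which a block cannot change in this balanced design; its adjusted p was 0.673 without the block and 0.1015 with it. Genes above background numbered 17, 11 with the highest viral probe set as background, 9 if every probe set of the gene had to be above it, and 17 to 19 without 1 array; the other definitions gave 15 to 22. Member probe sets higher without overlap, 9 as deposited, were 13 among all 66, 5 after quantile normalization, 10 with equal medians and 12 to 15 without 1 array; those lower, 2 as deposited, were 11 among all 66 and 3 to 6 without 1 array, as fewer arrays overlap less often. These overlap counts and their alternatives were added after seeing the data. Of all chicken probe sets above background, 18.6% were higher as deposited, 17.0% after quantile normalization and 20.4% with equal medians, and 14.3% were lower as deposited. Such a share was not counted with 1 array left out. The member counts without 1 array therefore cannot show whether members exceeded the other probe sets in either direction. Of 23 named probe sets, 22 kept the sign of their difference in the alternatives with all arrays that held them. These alternatives held all 23, except for 19 in both offset fits and 17 with probe sets above background only. HOXA5 went from 0.02 to -0.011 after quantile normalization. A block, or a restriction to probe sets above background, leaves each difference unchanged. Only the offset, quantile normalization and equal medians could therefore change its sign. In the 4 fits without 1 array 13 kept it, among them HOXA13 with -1.10 to -0.0074, PBX3 with -1.25 to -0.29, HOXA7 with 0.16 to 0.67, HOXB1 with 0.15 to 0.54 and HOXC9 with 0.92 to 1.75; for the others the log2 difference ranged from -0.25 to 0.45 for HOXA3, -0.17 to 0.21 for HOXA5, -0.28 to 0.39 for HOXA6, -0.022 to 1.43 for HOXA9, -0.84 to 0.093 for HOXA10, -0.39 to 0.69 for HOXB3, -0.073 to 0.42 for HOXB4, -0.032 to 1.05 for HOXB7, -0.66 to 0.36 for HOXB8 and -0.021 to 0.57 for PBX4. The cause was not tested. Signal near background limits the posterior Hox genes and the cofactors.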
